A study of Mus musculus with 12 samples.

Results

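The genes described here carry signals of the interferon, tumour necrosis factor (TNF), interleukin-1 and Toll-like receptor pathways, together with the NF-kB factors on which several of these pathways converge. They form a list of 45 named genes, chosen by symbol for their place in these pathways, with earlier results of these data known. Shares of the list set beside those of all genes are therefore descriptive. All 45 were found among the 24138 genes of the deposited tables. By role they are 4 interferon receptor chains, 3 JAK kinases, 9 STAT and IRF factors, 4 interferon targets, 6 Toll-like receptors, 6 adaptors or kinases, 2 ligands, 3 receptors of TNF and interleukin-1, 4 NF-kB subunits and 4 inhibitors.

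RNA was sequenced from cells sorted out of the mouse aorta-gonad-mesonephros region, where blood stem and progenitor cells bud from the aortic wall in clusters. All groups were on the C57BL/6 strain and were sorted for CD31 and CD117 and against SSEA-1. The groups, with 3 samples each, were S/G2/M cells of Fucci Green embryos at E11.5, G1 cells of Fucci Red embryos at E11.5, S/G2/M cells of Fucci Green embryos at E10.5 and G1 cells of Fucci Red embryos at E10.5. Fucci Green embryos carry the reporter mAG and Fucci Red embryos the reporter mKO2, so reporter line and cell cycle phase cannot be told apart. The sources used here do not say whether embryos were pooled for a sample. The deposited values are FPKM (mapped fragments scaled to transcript length and sequencing depth), with a single value for a gene in each group, and the spread among the 3 samples is therefore unknown. Since FPKM is per length, levels can also be compared between genes. A gene is said here to have risen, fallen or passed where the authors' deposited table lists a q-value under 0.05, and folds are ratios of the 2 FPKM values.

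Interferons bind paired receptor chains on the cell surface. The JAK kinases on these chains phosphorylate STAT factors, and type I interferon in this way brings STAT2 and IRF9 to the response elements of interferon-stimulated genes. Toll-like receptors sense microbial molecules and nucleic acids, and most signal through MYD88 and the IRAK kinases to TRAF6, while TNF signals through RIPK1. These routes release NF-kB from its inhibitor, and NF-kB in turn switches on that inhibitor and TNFAIP3 as feedback. In zebrafish and mouse embryos, sterile interferon, TNF and Toll signals are known to take part in the emergence of blood stem cells from the aortic endothelium.

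The markers that the cells were sorted for were present in all groups. Kit (CD117) had 30.003 and 17.1 FPKM in S/G2/M and G1 cells at E11.5, and 12.6 and 14.4 FPKM in S/G2/M and G1 cells at E10.5, and Pecam1 (CD31) had 73.2, 113, 29.7 and 38.1 FPKM in the same order. Macrophage markers were also present in all groups. The summed level of 15 such markers was 777 FPKM in S/G2/M cells and 2581.5 FPKM in G1 cells at E11.5, and 217 FPKM in S/G2/M cells and 348 FPKM in G1 cells at E10.5. Of these markers, Cd163 was listed at 0 in every group but G1 cells at E11.5. The 5 lymphocyte markers summed to at most 4.30 FPKM, with Cd3e listed at 0 in every group. In such sorted populations, fewer cells of a type and less RNA per cell cannot be told apart.

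The interferon receptor chains were the role with the highest median level in all groups. In G1 cells at E11.5, the 4 interferon receptor chains ranged from 19.4 to 139 FPKM, the 6 Toll-like receptors from 8.27 to 28.7 FPKM and the 4 interferon targets from 0.320 to 27.1 FPKM, while the ligands Tnf and Il1b had 0.901 and 2.84 FPKM. Over all 45 genes the median level was 6.997 FPKM in S/G2/M cells and 10.35 FPKM in G1 cells at E11.5, and 3.23 FPKM in S/G2/M cells and 3.81 FPKM in G1 cells at E10.5. At E11.5, 17 of the 45 reached 10 FPKM in S/G2/M cells and 24 in G1 cells, and at E10.5 these numbers were 9 and 12. The levels in this paragraph come from the tables by age. The tables by phase gave the same groups values that differed by 0.590% to 5.88% for members of at least 1 FPKM.

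**Figure D1:**
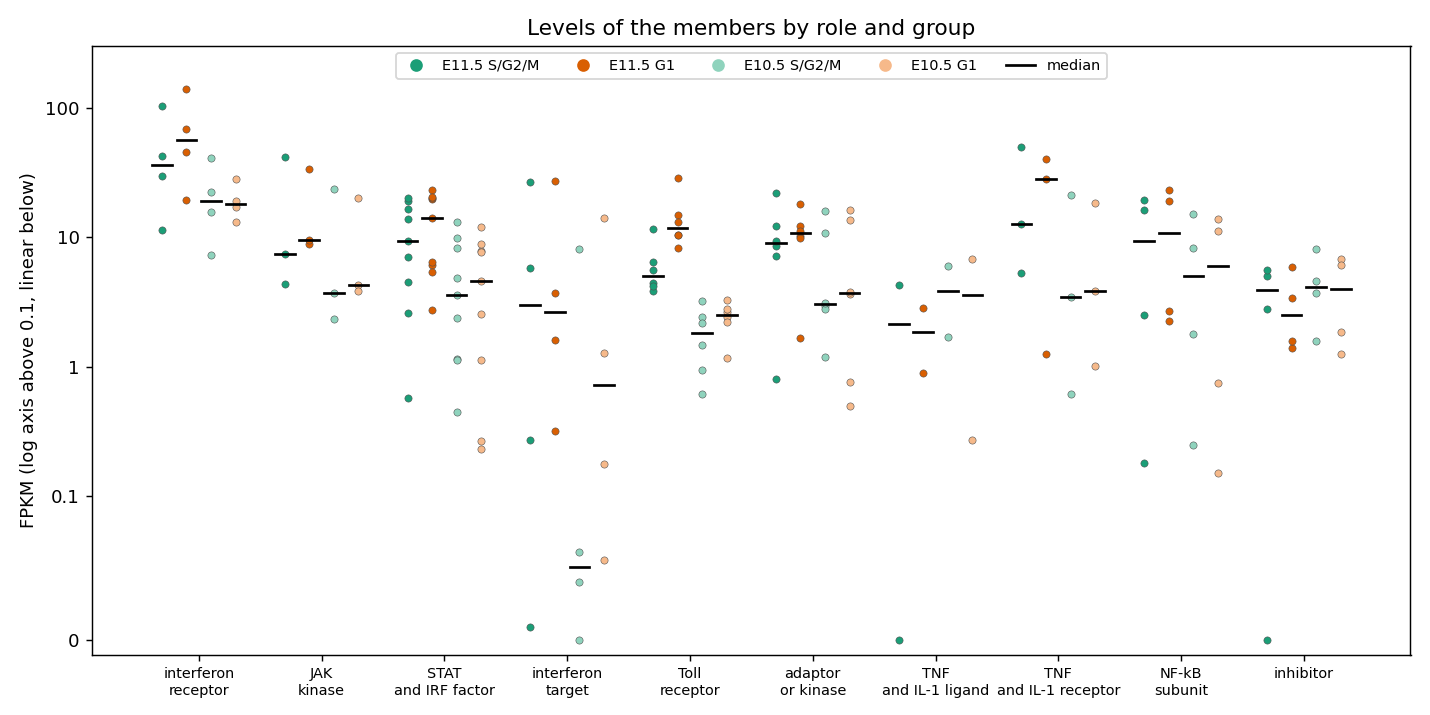
Level of each of the 45 genes in FPKM (vertical axis, logarithmic above 0.1 and linear below) by role and group. Each point is a gene's group value and each black bar the median of the role. Interferon receptor chains lie between 7.36 and 139 FPKM in all groups, and 3 points lie at 0.

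With age, most of these genes were higher. In G1 cells, Ifnar2, Ifngr1, Irf5, Tlr4, Tlr7 and Tnfrsf1b rose at E11.5 and no member fell. In S/G2/M cells, Irf2 and Tnfrsf1b rose and Il1b fell. Tnfrsf1b, which encodes the TNF receptor TNFR2, was the only member that passed in both phases. In G1 cells 41 of the 45 members were higher at E11.5 and 4 were lower, and in S/G2/M cells 38 were higher and 7 lower. Among tested genes, 90.9% of members and 50.9% of all genes were higher at E11.5 in G1 cells. In S/G2/M cells these shares were 87.8% and 52.1%.

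By the authors' deposited table for G1 cells, 6 of the 44 members tested rose, against 3.0% of all 12953 tested genes, and 0 fell, against 1.45%. The authors' test, whose columns are those of Cuffdiff, gave an unadjusted p under 0.05 to 18 of these members, all of them higher at E11.5, and to 15.4% of all tested genes. The median log2 fold change was 1.44 over the 44 members and 0.02 over all tested genes. For S/G2/M cells, 2 of the 41 members tested rose, against 2.14% of 12768 tested genes, and 1 fell, against 1.93%. There the authors' deposited table lists an unadjusted p under 0.05 for 17 members, 16 of them higher at E11.5, and 13.9% of all tested genes had such a p. The median log2 fold change was 0.97 over the 39 of these members above 0 in both groups and 0.03 over all tested genes. In either direction, 7.32% of the members tested in S/G2/M cells passed, against 4.07% of all tested genes. The first share rests on 3 members, too few to be read as a result about the list. The number that rose there depends on the threshold, with 1 at a q-value under 0.01 and 6 under 0.085. The authors tested only genes with enough reads, so Ifit1 was not tested in either phase, and Irf7, Ifit3 and Relb were not tested in S/G2/M cells.

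The age comparisons of G1 cells and of S/G2/M cells share no samples. Among the 41 members tested in both, 34 were higher at E11.5 in both (82.9%), 2 were lower in both and 5 went in opposite directions. Of all 12190 genes tested in both, 35.8% were higher at E11.5 in both. The log2 fold change was larger in G1 cells for 21 of the 34. Whether the age difference itself differed between the phases could not be tested from group values alone.

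**Figure D2:**
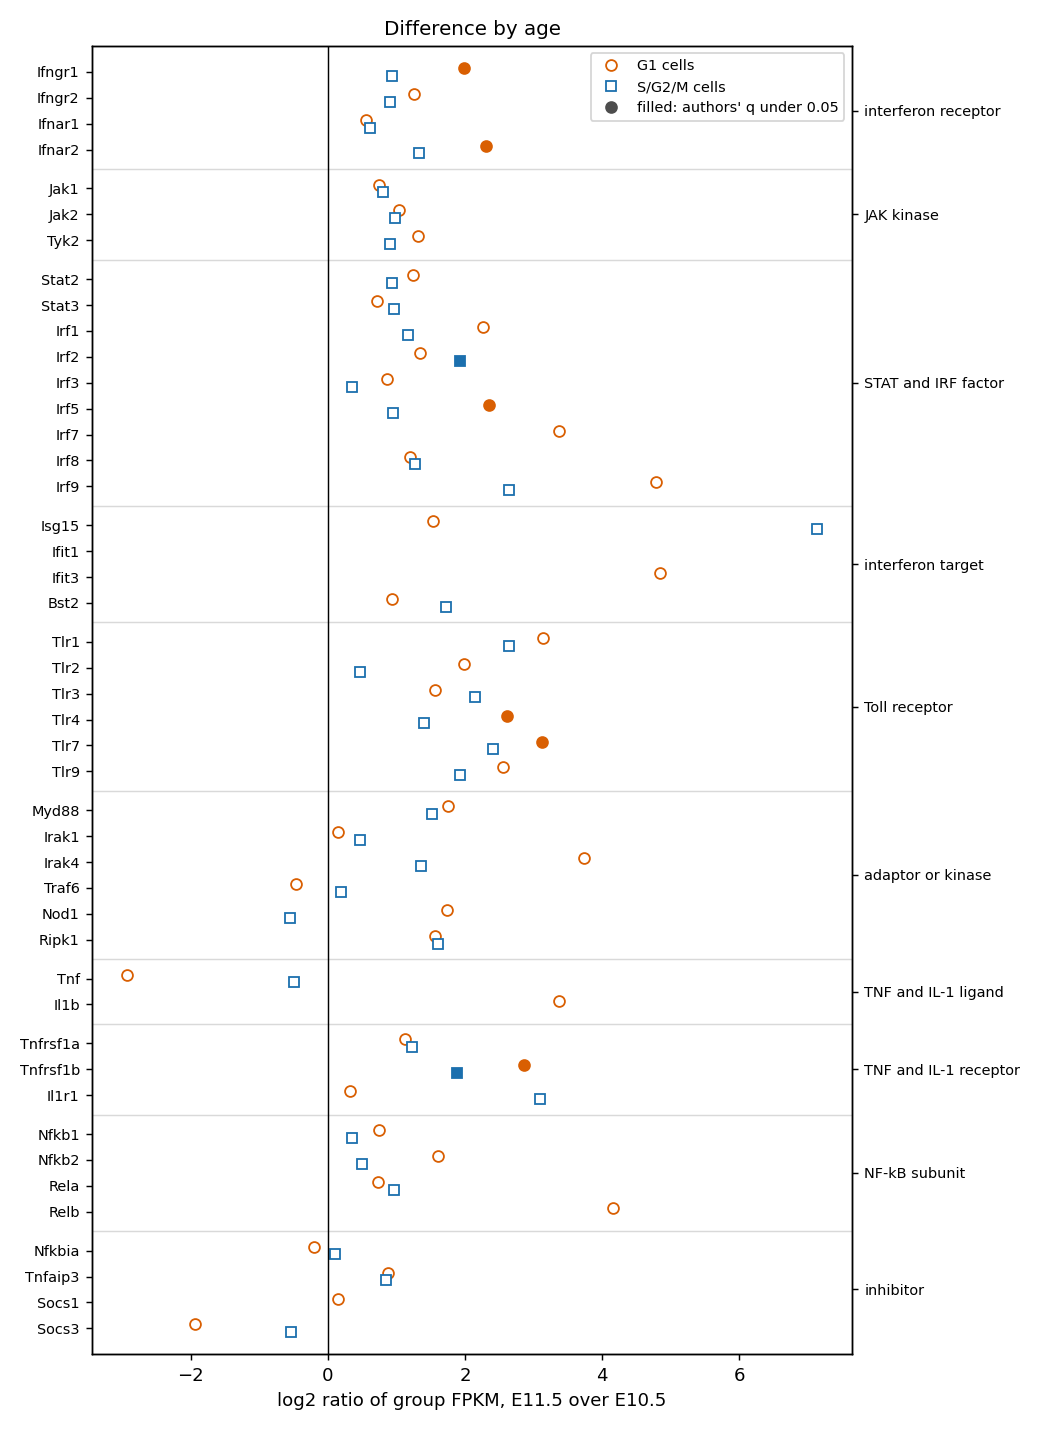
Log2 ratio of group FPKM, E11.5 over E10.5 (horizontal axis), for the members tested, in order of role. Circles are G1 cells, squares are S/G2/M cells, and filled symbols passed at a q-value under 0.05 in the authors' deposited tables. Members listed at 0 in a group have no ratio and are not drawn, among them Il1b and Socs1 in S/G2/M cells. Most symbols lie right of 0, and the Toll-like receptors lie between 0.47 and 3.14.

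Markers of several cell types moved with these differences. A list of 8 cluster and sort markers summed to 438 FPKM at E11.5 and 211 FPKM at E10.5 in G1 cells, where 3 of 7 tested rose. In S/G2/M cells the list summed to 379 and 164 FPKM, and 3 of 8 rose. Pecam1 rose in both phases and Kit in S/G2/M cells. In G1 cells 13 of the 14 tested macrophage markers of the list of 15 rose at E11.5, with a summed level of 2581.5 FPKM at E11.5 and 348 FPKM at E10.5. Of 13 tested in S/G2/M cells, 8 rose, with 777 FPKM at E11.5 and 217 FPKM at E10.5. The 9 mesenchymal markers were all lower at E11.5 in both phases, and 4 of them fell in each. Granulocyte and mast cell markers summed to 164 FPKM at E11.5 and 21.4 FPKM at E10.5 in G1 cells, and to 429 and 62.7 FPKM in S/G2/M cells. Erythroid markers summed to 3191 FPKM at E11.5 and 19342 FPKM at E10.5 in S/G2/M cells, where 5 of 6 were lower and 1 fell. In G1 cells the erythroid sums were 11865 and 14227 FPKM, and none of 6 passed. Neuronal markers summed to 129 and 350 FPKM in G1 cells, where 2 of 6 fell. In S/G2/M cells the neuronal sums were 65.9 and 60.8 FPKM, and none of 6 passed. The part of these cell types in the members' differences was not tested. The summed level of the 6 Toll-like receptors was 4.66% of the macrophage sum in S/G2/M cells and 3.32% in G1 cells at E11.5, and 5.03% in S/G2/M cells and 4.18% in G1 cells at E10.5. For the 3 JAK kinases the same shares were 6.85% and 2.02% at E11.5, and 13.8% and 8.11% at E10.5.

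Among the interferon receptors, Ifnar2, which encodes a chain of the type I interferon receptor (chromosome 16, 91372783 to 91405587, mm10), was the most abundant of all 45 genes in every group. In G1 cells it had 139 FPKM at E11.5 and 28.2 FPKM at E10.5, a 4.94-fold rise with a q-value of 0.00273 in the authors' deposited table. In S/G2/M cells it had 103 and 41.2 FPKM at E11.5 and E10.5 and did not pass, with a q-value of 0.0536 in the authors' deposited table. An exon of Ifnar2 overlaps the predicted coding gene Gm21970 in the reference annotation, and reads from the shared part cannot be assigned with certainty.

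Ifngr1, the ligand-binding chain of the interferon gamma receptor (chromosome 10, 19591958 to 19610225), rose 3.95-fold in G1 cells, with 68.0 FPKM at E11.5 and 17.2 FPKM at E10.5 and a q-value of 0.00489 in the authors' deposited table. Ifngr1 in S/G2/M cells had 42.8 FPKM at E11.5 and 22.4 FPKM at E10.5, with a q-value of 0.160 in the authors' deposited table. The partner chains were less far apart. Ifngr2, which joins IFNGR1 to its signalling kinase, had 45.5 and 19.0 FPKM in G1 cells at E11.5 and E10.5 (q-value 0.0880 in the authors' deposited table), and 29.7 and 15.8 FPKM in S/G2/M cells. Ifnar1, the other chain of the type I receptor, had 19.4 and 13.2 FPKM in G1 cells and 11.3 and 7.36 FPKM in S/G2/M cells, and passed in neither.

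The JAK kinases, which sit on the receptor tails, were all higher at E11.5 without passing. Jak1, which serves both interferon receptors, was the most abundant of the 3, at 33.7 and 20.1 FPKM in G1 cells at E11.5 and E10.5, and at 41.4 and 23.8 FPKM in S/G2/M cells. Its exons overlap those of Raver2 in the annotation. Jak2, the partner of the IFNGR2 chain, had 8.83 and 4.30 FPKM in G1 cells and 7.41 and 3.74 FPKM in S/G2/M cells. Tyk2, the partner of the IFNAR1 chain, had 9.58 and 3.83 FPKM in G1 cells and 4.40 and 2.36 FPKM in S/G2/M cells. The smallest q-value of these kinases in the authors' deposited tables was 0.150 in G1 cells and 0.164 in S/G2/M cells.

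All 9 STAT and IRF factors were higher at E11.5 in both phases, and 1 passed in each. Irf5, an interferon regulatory factor that acts downstream of Toll-like receptors in macrophages (chromosome 6, 29526625 to 29537320), rose 5.09-fold in G1 cells, with 23.3 FPKM at E11.5 and 4.58 FPKM at E10.5 and a q-value of 0.0357 in the authors' deposited table. Irf5 in S/G2/M cells had 9.35 and 4.83 FPKM and did not pass. Irf2, known as a repressor of interferon-stimulated genes that guards adult blood stem cells against interferon (chromosome 8, 46739745 to 46847458), rose 3.81-fold in S/G2/M cells, with 13.8 FPKM at E11.5 and 3.61 FPKM at E10.5 and a q-value of 0.0395 in the authors' deposited table. In G1 cells Irf2 had 20.0 FPKM at E11.5 and 7.85 FPKM at E10.5, with a q-value of 0.140 in the authors' deposited table.

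Other factors of this group did not pass. Irf8, a factor of macrophage and dendritic cell lineages, had 20.5 and 8.93 FPKM in G1 cells at E11.5 and E10.5, and 19.9 and 8.26 FPKM in S/G2/M cells. Stat3, which serves interleukin-6 and related cytokines, had 19.7 and 12.0 FPKM in G1 cells and 19.2 and 9.86 FPKM in S/G2/M cells. Irf3, a factor that is activated by TBK1 to induce interferon beta, had 14.0 and 7.72 FPKM in G1 cells and 16.7 and 13.1 FPKM in S/G2/M cells, with the limit that an exon overlaps Bcl2l12. These factors were thus present in every group at more than 7 FPKM.

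The factors of the type I interferon complex were lower. Irf9 had 6.41 FPKM in G1 cells at E11.5 and 0.233 FPKM at E10.5, and 6.997 and 1.12 FPKM in S/G2/M cells. Its partner Stat2 had 6.07 and 2.57 FPKM in G1 cells and 4.50 and 2.36 FPKM in S/G2/M cells. Irf1, which interferon gamma induces, had 5.42 and 1.13 FPKM in G1 cells and 2.59 and 1.15 FPKM in S/G2/M cells, and an exon of it overlaps Gm17334. Irf7, the amplifier of the type I response that interferon itself induces, stayed at or below 2.74 FPKM in all groups. The smallest q-value of these 4 factors in the authors' deposited tables was 0.274, that of Stat2 in G1 cells.

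The interferon targets did not pass at either phase. Bst2, which encodes the antiviral surface protein tetherin, was the only target of more than 6 FPKM, with 27.1 and 14.1 FPKM in G1 cells at E11.5 and E10.5, and 26.7 and 8.13 FPKM in S/G2/M cells. Isg15, a ubiquitin-like protein made in response to type I interferon, had 3.71 and 1.28 FPKM in G1 cells, and 5.75 and 0.0409 FPKM in S/G2/M cells, with a q-value of 0.632 in the authors' deposited table for S/G2/M cells. Ifit3 and Ifit1, which encode interferon-induced antiviral proteins, had at most 1.61 and 0.320 FPKM, both in G1 cells at E11.5. Ifit3 was listed at 0 in S/G2/M cells at E10.5. It has a near-identical copy, Ifit3b, which had at most 0.463 FPKM, and reads may be split between the copies.

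Upstream sequences of targets and feedback genes are shown with letter matches to the cores of known response elements. They were taken from RefSeq (GRCm38.p6), which held promoter windows for 41 of the 45 genes, with Tlr4, Tlr7, Nfkb1 and Relb not among them. Each run below gives the 250 bases before the start site, 5′ to 3′ on the gene's strand, and capitals mark matches, on either strand, to the core of the interferon-stimulated response element (GAAANNGAA), to the interferon gamma activated site (TTCNNNGAA) or to the core of the NF-kB site (GGANNNTCC). Isg15 (chr4:156200819-156201068, minus strand) and Ifit3 (chr19:34583279-34583528, plus strand) are shown as interferon targets that stayed low, Nfkbia (chr12:55492648-55492897, minus strand) as the NF-kB feedback gene, and Tnfrsf1b (chr4:145246871-145247120, minus strand) as the receptor that rose in both phases.
Isg15: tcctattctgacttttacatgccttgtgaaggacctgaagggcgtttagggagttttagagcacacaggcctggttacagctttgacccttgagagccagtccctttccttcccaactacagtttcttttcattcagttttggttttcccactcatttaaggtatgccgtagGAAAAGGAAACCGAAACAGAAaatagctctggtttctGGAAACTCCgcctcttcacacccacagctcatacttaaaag
Ifit3: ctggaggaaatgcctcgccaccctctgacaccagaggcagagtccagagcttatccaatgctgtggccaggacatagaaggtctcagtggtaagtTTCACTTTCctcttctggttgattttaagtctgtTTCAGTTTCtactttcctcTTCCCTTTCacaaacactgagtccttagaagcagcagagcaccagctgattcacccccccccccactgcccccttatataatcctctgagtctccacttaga
Nfkbia: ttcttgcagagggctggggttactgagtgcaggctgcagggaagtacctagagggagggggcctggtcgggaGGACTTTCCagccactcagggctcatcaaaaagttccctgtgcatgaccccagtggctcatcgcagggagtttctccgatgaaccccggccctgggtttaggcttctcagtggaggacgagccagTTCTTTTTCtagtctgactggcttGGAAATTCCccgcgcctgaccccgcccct
Tnfrsf1b: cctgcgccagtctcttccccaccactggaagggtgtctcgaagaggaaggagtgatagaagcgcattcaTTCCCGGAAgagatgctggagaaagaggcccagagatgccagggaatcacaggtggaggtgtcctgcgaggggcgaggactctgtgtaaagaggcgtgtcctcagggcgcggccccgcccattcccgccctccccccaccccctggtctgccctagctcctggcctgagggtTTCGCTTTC

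The Isg15 window held 3 matches to the interferon-stimulated core, which overlap each other and begin 78, 72 and 66 bases before the start site, and 1 match to the NF-kB core. The Ifit3 window held 3 matches to the interferon-stimulated core, at 155, 121 and 102 bases. The Nfkbia window held 2 matches to the NF-kB core, at 178 and 29 bases, and 1 to the interferon-stimulated core at 53 bases. The Tnfrsf1b window held 1 match to the interferon gamma activated site at 181 bases and 1 to the interferon-stimulated core at 9 bases. Over all 32851 mouse windows of this length, 7.13% held the interferon-stimulated core, 7.02% the interferon gamma activated site and 7.27% the NF-kB core. Of the 52 windows of the 41 matched members, 10, 13 and 10 held them, in that order. A match describes letters and is no sign that a factor was bound.

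Every one of the 6 Toll-like receptors was higher at E11.5 in both phases, and 2 of them rose in G1 cells. Tlr7, an endosomal sensor of single-stranded RNA (chromosome X, 167304926 to 167330571), rose 8.76-fold in G1 cells, with 28.7 FPKM at E11.5 and 3.28 FPKM at E10.5 and a q-value of 0.00273 in the authors' deposited table. Tlr4, the sensor of bacterial lipopolysaccharide (chromosome 4, 66827811 to 66842796), rose 6.13-fold, with 14.9 and 2.42 FPKM and the same q-value of 0.00273 in the authors' deposited table. Tlr7 in S/G2/M cells had 11.6 FPKM at E11.5 and 2.20 FPKM at E10.5, and Tlr4 had 6.47 and 2.44 FPKM, and neither passed.

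The other Toll-like receptors did not pass in G1 cells, where the authors' deposited table gives them q-values of 0.119 or more. Tlr9, a sensor of unmethylated CpG DNA, had 13.1 and 2.23 FPKM at E11.5 and E10.5. Tlr2, which senses bacterial lipopeptides, had 10.495 and 2.64 FPKM, and its partner Tlr1 had 10.35 and 1.17 FPKM. Tlr3, a sensor of double-stranded RNA, had 8.27 and 2.81 FPKM in G1 cells, and 4.19 and 0.949 FPKM in S/G2/M cells with a q-value of 0.0523 in the authors' deposited table. Tlr9, Tlr2 and Tlr1 in S/G2/M cells had 5.59, 4.47 and 3.83 FPKM at E11.5, against 1.47, 3.23 and 0.615 FPKM at E10.5. All 6 receptors were thus at or below 3.28 FPKM at E10.5.

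The adaptors and kinases below these receptors did not pass. Ripk1, the kinase at the TNF receptor, came nearest, with 11.3 and 3.81 FPKM in G1 cells at E11.5 and E10.5, and 9.42 and 3.10 FPKM in S/G2/M cells. Its q-values in the authors' deposited tables were 0.0627 and 0.0559. Myd88, the adaptor of most Toll-like and interleukin-1 receptors, had 12.3 and 3.64 FPKM in G1 cells and 8.52 and 2.97 FPKM in S/G2/M cells, and an exon of it overlaps Acaa1a. Irak4, the first kinase recruited by MYD88, had 10.3 and 0.771 FPKM in G1 cells and 7.21 and 2.81 FPKM in S/G2/M cells. Further along the route, the values by age lay closer together. Irak1, deposited jointly with Mir5132, had 18.2 and 16.4 FPKM in G1 cells and 22.1 and 15.9 FPKM in S/G2/M cells. Traf6, the ubiquitin ligase on which these receptors converge, had 9.89 and 13.6 FPKM in G1 cells and 12.3 and 10.8 FPKM in S/G2/M cells. Nod1, a cytosolic sensor of bacterial cell walls, stayed at or below 1.68 FPKM in all groups.

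The receptors of TNF were higher at E11.5, whereas their ligand was not. Tnfrsf1b (chromosome 4, 145212368 to 145246870) rose 7.28-fold in G1 cells, with 28.2 FPKM at E11.5 and 3.87 FPKM at E10.5 and a q-value of 0.00273 in the authors' deposited table. It also rose 3.68-fold in S/G2/M cells, with 12.7 and 3.46 FPKM and a q-value of 0.00548 in the authors' deposited table. Tnfrsf1a, which encodes TNFR1, the receptor that carries a death domain, was more abundant in every group, at 40.4 and 18.5 FPKM in G1 cells at E11.5 and E10.5, and at 49.8 and 21.3 FPKM in S/G2/M cells. It passed in neither, with q-values of 0.115 and 0.0606 in the authors' deposited tables. Tnf itself had 0.901 FPKM at E11.5 and 6.85 FPKM at E10.5 in G1 cells, and 4.26 and 5.98 FPKM in S/G2/M cells, with q-values of 0.594 and 0.897 in the authors' deposited tables.

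Of the interleukin-1 genes, the receptor Il1r1 had 5.29 FPKM at E11.5 and 0.622 FPKM at E10.5 in S/G2/M cells, with a q-value of 0.0857 in the authors' deposited table. In G1 cells its values were 1.27 and 1.02 FPKM. Il1b, which encodes the secreted cytokine interleukin-1 beta (chromosome 2, 129364580 to 129375733), fell in S/G2/M cells. It was listed at 0 at E11.5, against 1.71 FPKM at E10.5, with a q-value of 0.00308 in the authors' deposited table. In G1 cells it had 2.84 and 0.274 FPKM and did not pass. The call on Il1b rests on a group listed at 0 and ends when at least 5 FPKM are asked for in the higher group.

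**Figure D3:**
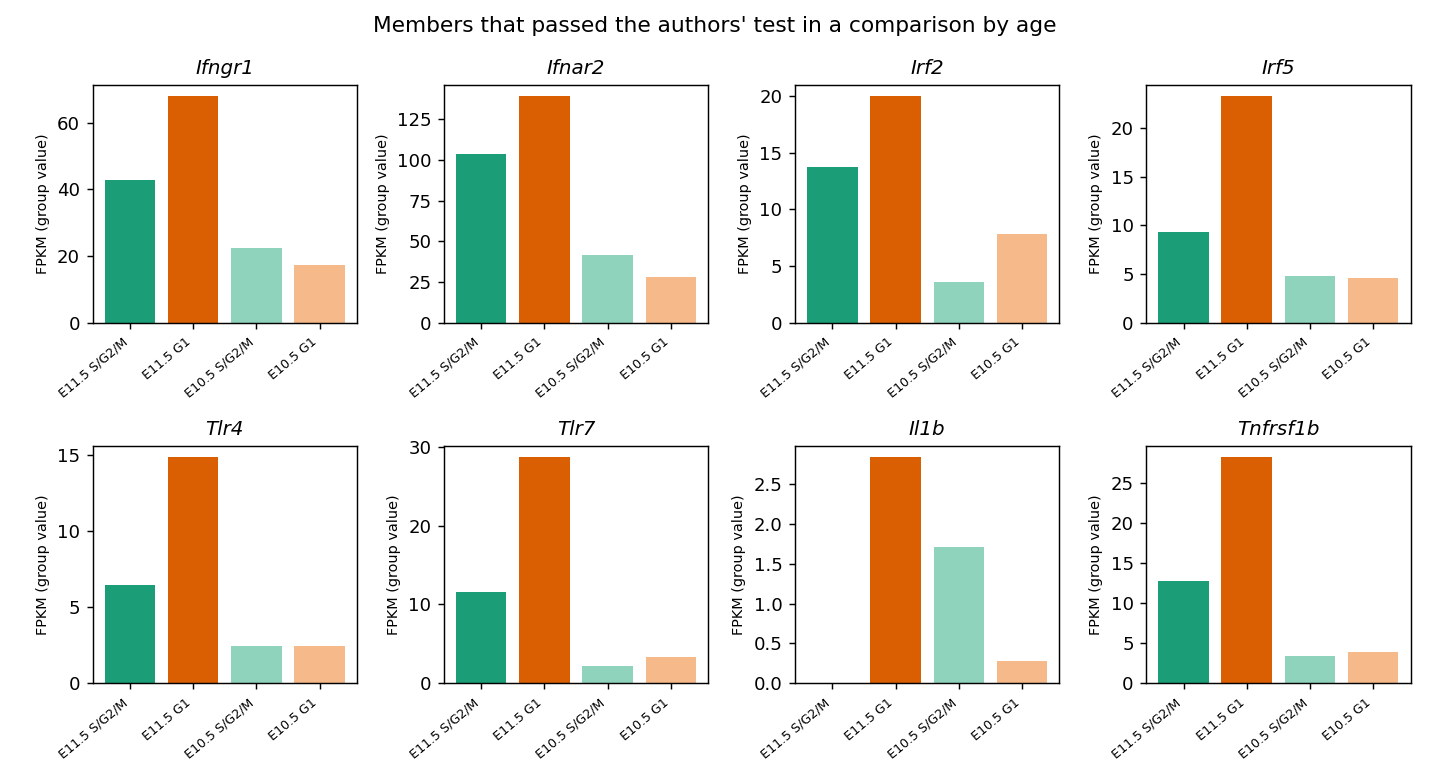
Group values in FPKM (vertical axes, each from 0) of the 8 members that passed in a comparison by age, with bars for S/G2/M cells at E11.5, G1 cells at E11.5, S/G2/M cells at E10.5 and G1 cells at E10.5. Apart from Il1b, which is listed at 0 in S/G2/M cells at E11.5, the bar of G1 cells at E11.5 is the tallest and both bars of E10.5 are lower than both bars of E11.5.

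The NF-kB subunits did not pass. The 2 subunits of the classical complex were the more abundant. Rela, which encodes p65, had 23.1 FPKM at E11.5 and 13.9 FPKM at E10.5 in G1 cells, and 16.2 and 8.26 FPKM in S/G2/M cells. Nfkb1, the precursor of p50, had 19.0 and 11.3 FPKM in G1 cells and 19.3 and 15.1 FPKM in S/G2/M cells. The subunits of the alternative pathway were low. Nfkb2, the precursor of p52, ranged from 0.747 to 2.52 FPKM over the groups, with an exon overlapping Psd, and Relb from 0.150 to 2.70 FPKM. The lowest q-value of the 4 subunits in the authors' deposited tables was 0.384 in G1 cells and 0.342 in S/G2/M cells.

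Of the 4 inhibitors, 2 were higher and 2 lower at E11.5 in each phase. Nfkbia, which encodes the NF-kB inhibitor, had 5.86 FPKM at E11.5 and 6.75 FPKM at E10.5 in G1 cells, and 4.99 and 4.62 FPKM in S/G2/M cells. Its deposited locus (chromosome 12, 55280814 to 55492647) is the longest of all members. Whether the Nfkbia value includes reads from outside the gene was not examined. Socs3, which restrains STAT3 signalling, had 1.59 and 6.09 FPKM in G1 cells and 5.59 and 8.07 FPKM in S/G2/M cells. Tnfaip3, which encodes the ubiquitin-editing protein A20, had 3.42 and 1.85 FPKM in G1 cells and 2.82 and 1.57 FPKM in S/G2/M cells. Socs1, which restrains JAK kinases, had 1.39 and 1.25 FPKM in G1 cells, and in S/G2/M cells it was listed at 0 at E11.5 against 3.71 FPKM at E10.5. None of these passed, with a lowest q-value of 0.325 in the authors' deposited tables, that of Socs3 in G1 cells.

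Between the phases no member passed at either age. At E11.5, 34 of the 45 genes were lower in S/G2/M cells than in G1 cells and 11 were higher, and all 6 Toll-like receptors and all 4 interferon receptor chains were among the lower. Il1r1 went the other way. At E10.5, 28 members were lower in S/G2/M cells and 17 were higher. By the authors' deposited table for E11.5, 0 of the 44 members tested passed, against 0.701% of 12414 tested genes. The test, whose columns are those of Cuffdiff, gave an unadjusted p under 0.05 to 10 members (22.7%), of which 9 were lower in S/G2/M cells, and to 8.27% of all tested genes. For E10.5, 0 of the 41 members tested passed, against 0.655% of 12984 tested genes, with 3 members (7.32%) and 6.69% of all tested genes at an unadjusted p under 0.05. No other tool could be run without values per sample. The median log2 fold change was -0.51 at E11.5 and -0.20 at E10.5 over the members tested and above 0 in both groups, and -0.06 and -0.04 over all tested genes.

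The Toll-like receptors were all lower in S/G2/M cells at E11.5, with log2 fold changes from -1.48 to -1.03. Tlr7 had 11.2 FPKM in S/G2/M cells and 28.3 FPKM in G1 cells, with an unadjusted p of 0.0078 and a q-value of 0.301 in the authors' deposited table. Tlr4 had 6.19 and 14.7 FPKM, Tlr9 5.39 and 12.9 FPKM, Tlr2 4.30 and 10.4 FPKM, Tlr1 3.68 and 10.2 FPKM and Tlr3 3.99 and 8.17 FPKM in S/G2/M and G1 cells. At E10.5 the receptors were at or below 3.27 FPKM in S/G2/M cells and 3.41 FPKM in G1 cells, and Tlr2 was the single receptor higher in S/G2/M cells. Macrophage markers moved in the same direction at E11.5, where 7 of 14 tested fell and all 14 were lower in S/G2/M cells, with a summed level of 745 FPKM in S/G2/M cells and 2551 FPKM in G1 cells. At E10.5 none of 14 passed, 13 were lower in S/G2/M cells, and the sums were 220 and 363 FPKM. Erythroid markers summed to 3034 FPKM in S/G2/M cells and 11742 FPKM in G1 cells at E11.5, where 2 of 6 fell. At E10.5 the erythroid sums were 19174 and 15037 FPKM, and none of 6 passed. Neuronal markers summed to 62.8 and 127 FPKM at E11.5, where none of 6 passed. At E10.5 the neuronal sums were 60.7 and 365 FPKM, and all 6 fell. Granulocyte and mast cell markers were higher in sum in S/G2/M cells at both ages. They had 415 FPKM in S/G2/M cells and 162 FPKM in G1 cells at E11.5, where 1 rose and 1 fell. At E10.5 their sums were 63.7 and 22.3 FPKM, and none of 4 tested passed. The part of these markers in the members' differences was not tested.

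Other members with an unadjusted p under 0.05 at E11.5 came from several roles. Tnfrsf1b had 12.3 FPKM in S/G2/M cells and 27.8 FPKM in G1 cells, and Irf5 had 9.03 and 23.0 FPKM, with q-values of 0.278 and 0.363 in the authors' deposited table. Tyk2 had 4.23 and 9.45 FPKM and Ifnar1 10.9 and 19.2 FPKM. Il1r1 was higher in S/G2/M cells, at 5.12 FPKM against 1.25 FPKM in G1 cells, and its q-value of 0.228 in the authors' deposited table was the lowest of all members between phases at E11.5. At E10.5 the 3 such members were Ifnar1 (7.43 FPKM in S/G2/M cells and 13.8 FPKM in G1 cells), Irf2 (3.65 and 8.21 FPKM) and Irak4 (2.85 and 0.803 FPKM). These 3 are 7.32% of the members tested, near the 6.69% of all tested genes. Their q-values in the authors' deposited table were 0.433, 0.704 and 0.697, in that order. Ifnar1 was lower in S/G2/M cells with such a p at both ages, and its q-value at E11.5 was 0.486.

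Several abundant members lay close together in the phases. At E11.5 Stat3 had 18.4 FPKM in S/G2/M cells and 19.5 FPKM in G1 cells, Irf8 had 19.2 and 20.3 FPKM, Nfkb1 had 18.5 and 18.7 FPKM and Bst2 had 25.6 and 26.8 FPKM. Jak1 had 39.9 and 33.2 FPKM and Tnfrsf1a had 47.8 and 39.8 FPKM. None of these passed, and without a spread between samples their equality cannot be stated. The comparisons at E11.5 and at E10.5 share no samples. Of the 41 members tested at both ages, 21 were lower in S/G2/M cells at both (51.2%), against 32.9% of all genes tested at both, 6 were higher at both and 14 went in opposite directions.

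**Figure D4:**
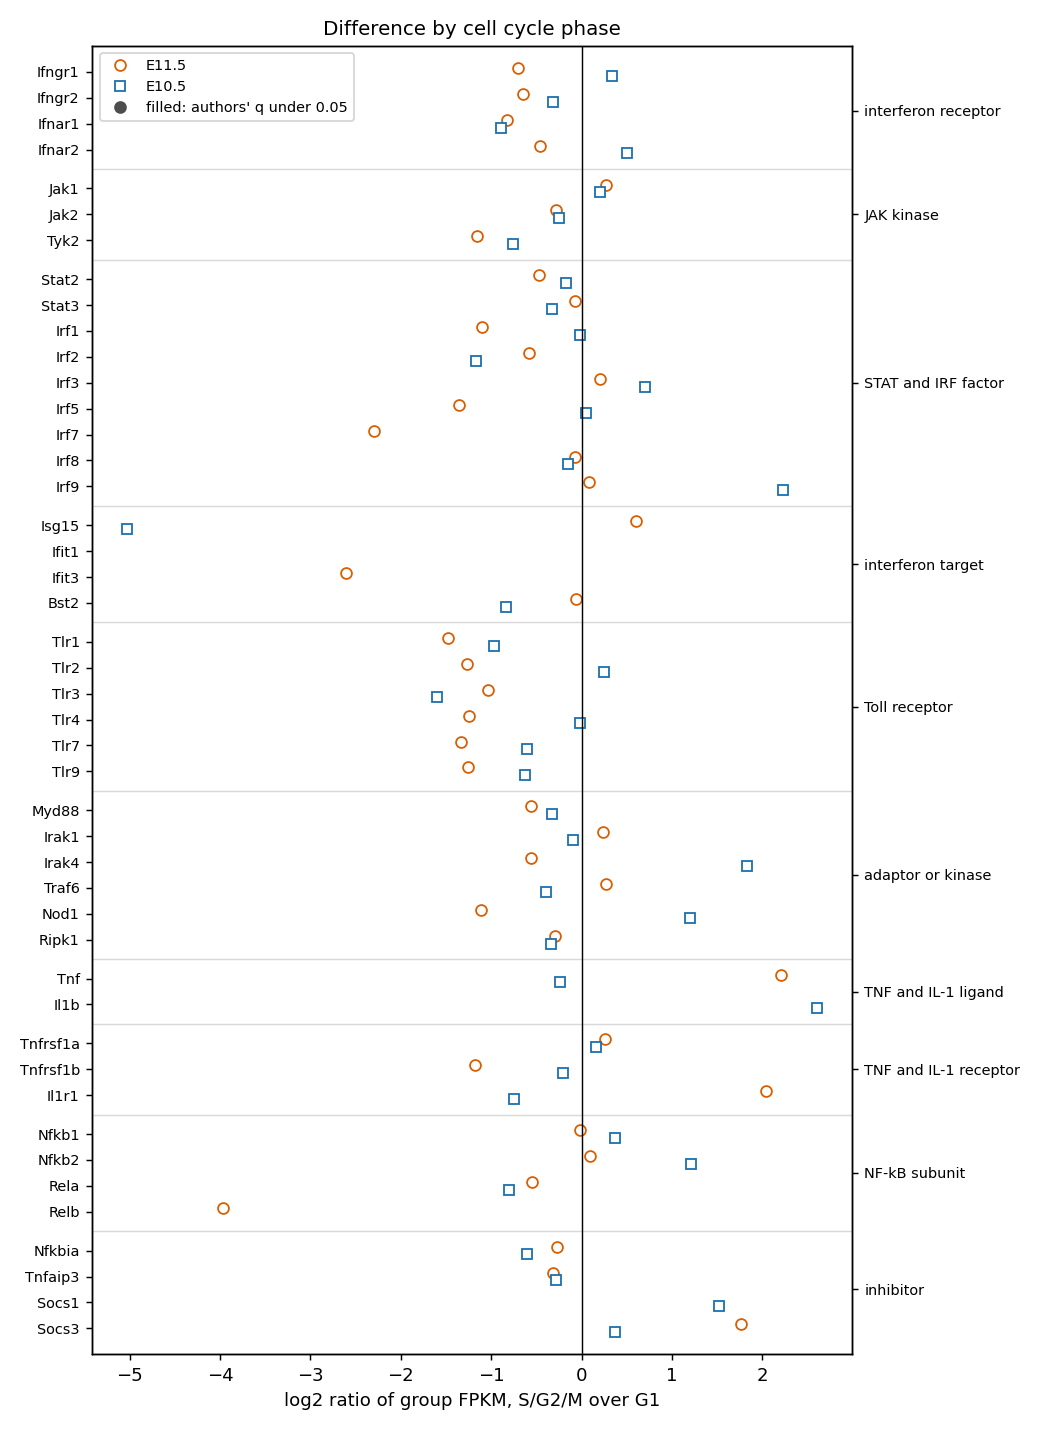
Log2 ratio of group FPKM, S/G2/M over G1 (horizontal axis), for the members tested, in order of role. Circles are E11.5 and squares are E10.5, and no symbol is filled because no member passed in the authors' deposited tables. At E11.5 the 6 Toll-like receptors lie between -1.48 and -1.03. Il1b and Socs1 have no ratio at E11.5, since they are listed at 0 in S/G2/M cells.

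A wider list of 100 other genes of these pathways, also chosen with earlier results of these data known, was counted in the same way. In G1 cells 11 of its 85 tested genes rose at E11.5, against 3.0% of all tested genes, and 0 fell, and the authors' deposited table lists 24 (28.2%) with an unadjusted p under 0.05, against 15.4% of all tested genes. Cd180, a relative of the Toll-like receptors on B cells and macrophages, rose 5.19-fold (130.04 FPKM at E11.5 and 25.1 FPKM at E10.5). Unc93b1, which escorts the nucleic acid sensing Toll-like receptors to endosomes, rose 9.82-fold (67.25 and 6.85 FPKM), and Tlr13, a sensor of bacterial ribosomal RNA, rose 12.5-fold (13.2 and 1.06 FPKM). Il6ra, the interleukin-6 receptor, rose 10.2-fold and Ptpn6, which encodes the phosphatase SHP-1, rose 5.79-fold. Il10rb rose 3.90-fold, Gbp7, an interferon-induced GTPase gene, 4.43-fold and Trim25, a ubiquitin ligase of RNA sensing, 2.29-fold. Mlkl and Il1rn rose to 2.64 and 1.39 FPKM and were listed at 0 at E10.5.

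In S/G2/M cells 6 of the 82 tested genes of the wider list (7.32%) rose at E11.5, against 2.14% of all tested genes, and 0 fell, and the authors' deposited table lists 19 (23.2%) with an unadjusted p under 0.05, against 13.9% of all tested genes. Among them were Trim25 (51.2 FPKM at E11.5 and 16.6 FPKM at E10.5), Cd180 (65.4 and 15.1 FPKM), Ptpn6 (34.1 and 9.91 FPKM), Il6ra (12.5 and 2.98 FPKM) and Casp8, a caspase at death receptors (41.6 and 15.2 FPKM). All of these but Casp8 also rose in G1 cells. At a q-value under 0.01 the counts of the wider list were 5 in G1 cells and 2 in S/G2/M cells. Between the phases, Unc93b1 was the single gene of 86 tested that passed at E11.5, lower in S/G2/M cells at 12.2 FPKM than in G1 cells at 66.4 FPKM, a call that ends at a q-value under 0.01. None of 70 tested passed at E10.5, where the authors' deposited table lists 2 with an unadjusted p under 0.05.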

How the data were processed

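Each of the 6 tables that the authors deposited holds 24138 genes and, per the file headers, which are those of Cuffdiff, an FPKM value for each of 2 groups and a p-value and q-value of their comparison. The submitters' processing notes name mm10, TopHat, Cuffdiff and CASAVA 1.4, whereas the labels' protocols name bowtie 0.12.2 and mm8. All 45 deposited loci overlapped the gene of the same symbol in an mm10 annotation, so coordinates are given as mm10, counted from 1. The sources used here give neither strandedness, nor the depth per sample, nor how the test treated the 3 samples of a group. The precision is therefore unknown, and since nothing says that samples came from separate litters, the spread behind a q-value may be technical. A Benjamini-Hochberg adjustment over all tested genes gave the deposited q-values again, so they are adjusted across all genes and not over the list.

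Groups were read from the tables' own headers, where S/G2/M cells are named with G2. Folds were computed from the FPKM values without a pseudocount, as E11.5 over E10.5 and S/G2/M over G1. Where a symbol had several rows, the row with the highest value was kept. The alternatives were q-values under 0.01 or 0.085, a log2 fold change of at least 1, at least 1 or 5 FPKM in the higher group, a pseudocount of 1 FPKM, median scaling, summed rows and the tables in the other order of groups. The calculation was tested on simulated data. The members and lists were chosen with earlier results of these data known. The rule for full values was a call, at least 10 FPKM, or a fold of at least 2 with at least 5 FPKM; other members were added to complete their role, and the promoters, beyond targets and feedback genes, include Tnfrsf1b for its call. A few genes of the lists are not reported by name here. Motifs were searched in RefSeq promoter windows. The scripts ran under Python 3.11.15 with pandas 2.3.3, numpy 2.4.6 and, for the plots, matplotlib 3.10.9.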

Additional observations from a re-analysis of the deposited data

How the results depend on the processing

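No paired analysis was possible because the columns carry group values and no replicate numbers, and for the same reason no replicate could be left out. Of 100 recomputed values, 90 kept their side of the threshold or moved by less than 0.1 (log2 medians) or 1.5 times (counts), and none reversed. Part of these 90 could not have changed. A count of 0 can only stay 0 under a stricter threshold or filter. By phase no gene could pass at a q-value under 0.01, since the smallest were 0.0102 at E11.5 and 0.0101 at E10.5. Summing rows left every median as it was. The 90 is therefore no measure of robustness. In G1 cells by age, the members' median log2 fold change of 1.44 became 1.12 with a pseudocount of 1 FPKM and 1.29 when the higher group had to reach 5 FPKM, and the 11 genes called in the wider list became 5 at a q-value under 0.01. In S/G2/M cells by age, the 2 members that rose became 1 under 0.01 and 6 under 0.085, the single fall became 0 with at least 5 FPKM, and the median of 0.97 became 1.22 with at least 5 FPKM. There the 6 genes called in the wider list became 2 under 0.01 and 10 under 0.085. By phase at E11.5, the single gene called in the wider list became 0 under 0.01, since the smallest q-value in that table was 0.0102. The alternatives on the wider list were chosen after seeing the data. No result was given an error, because the depth and the spread between samples are unknown.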

Other observations

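Ratios of FPKM between the chains of an interferon receptor, and between the TNF receptors, are given here without a spread between samples. Ifnar2 stood at 9.16 times Ifnar1 in S/G2/M cells and 7.17 times in G1 cells at E11.5, and at 5.60 and 2.13 times at E10.5. Ifngr1 stood at 1.44 and 1.49 times Ifngr2 at E11.5, and at 1.42 and 0.905 times at E10.5. Tnfrsf1a stood at 3.91 and 1.43 times Tnfrsf1b at E11.5, and at 6.16 and 4.78 times at E10.5. G1 cells at E11.5 thus had the lowest ratio of TNFR1 to TNFR2 transcripts, and G1 cells at E10.5 the lowest ratio of Ifnar2 to Ifnar1. These ratios were computed after the values had been seen, and their differences between groups were not tested.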
